A study of Mus musculus with 14 samples.

Results

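Cytosolic ribosomal protein genes were followed across stem and progenitor cells of mouse bone marrow with and without Dpy30. The members were chosen by name alone: the symbols Rpl and Rps with a number and at most 1 of the letters a, l or x, plus Rplp0, Rplp1, Rplp2 and Rpsa, with pseudogene entries left out. The rule found 80 genes of 38926 gene entries in the LSK and MyePro files and the same 80 symbols among 39179 gene IDs in the LT-HSC files. Of these, 49 encode proteins of the large ribosomal subunit and 31 proteins of the small subunit. Rpl6l and Rps4l, 2 names that are listed for LT-HSC only, were not used. Fau, Rps3a1 and Rack1 (listed as Gnb2l1 in LSK and MyePro) encode ribosomal proteins under other kinds of name and are given apart.

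Ribosomal proteins are made in matched amounts, since nearly every ribosome carries the whole set and unassembled copies are degraded. Their mRNAs begin with a run of pyrimidines, the terminal oligopyrimidine or TOP tract, through which mTOR and the RNA-binding protein LARP1 control their translation. In the bone marrow these genes are known from Diamond-Blackfan anemia, in which loss of a single ribosomal protein allele impairs red cell production, and from the 5q- syndrome, which involves RPS14. Hematopoietic stem cells are known for a lower rate of protein synthesis than the progenitors they give rise to.

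DPY30 is shared by the SET1 and MLL complexes that place methyl groups on lysine 4 of histone H3, and the series measured RNA and histone marks with and without it. The groups used here were KO LSK, control LSK, KO MyePro, control MyePro, KO LT-HSC and control LT-HSC cells, where KO donors were Mx1-Cre; Dpy30F/- and control donors Mx1-Cre; Dpy30F/+. All donors thus carried the floxed allele and the Mx1-Cre transgene, whose promoter answers to interferon, and control cells had 1 wild-type allele rather than 2. Donor marrow was mixed with competitor marrow of C57Bl/6J mice in irradiated recipients, so that recipients also held cells without Cre. From week 7 after transplantation all recipients received 4 injections of pIpC (7.5 µg/g) over 10 days, and marrow was harvested 2 weeks after the last one. LSK cells are the lineage-negative Sca-1+ Kit+ fraction with stem cells and early progenitors, and they and the MyePro cells were sequenced in a single library for each genotype (2 to 3 pooled mice). LT-HSCs, the long-term stem cells, came as 2 libraries per genotype from transplants 1 and 2, each from 7 to 9 pooled mice, and their RNA was amplified. The sources used here give neither the gate for MyePro cells, nor the age of the recipients, nor whether LSK and MyePro sorts kept donor cells alone. Of the 14 samples, 8 were used, and the 6 ChIP-seq samples were not analysed here.

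Libraries held 6130320 to 20820762 gene counts in LSK and MyePro and 38060087 to 85499797 in LT-HSC. Dpy30 stood at 45.7 CPM in KO LSK against 76.7 CPM in control LSK, and at 51.1 CPM in KO MyePro against 109 CPM in control MyePro (CPM, counts scaled to 1000000 per library over gene entries). In LT-HSC it stood at 14.1 and 4.67 TMM-normalized CPM in the libraries labelled KO against 12.9 and 8.43 in control, so that KO LT-HSC 1 was not lower (edgeR quasi-likelihood test, Benjamini-Hochberg adjusted p = 0.999). The counts cover the whole gene and the labels do not name the deleted exons, so this level is an incomplete check, and directions in LT-HSC below rest on the labels. Myeloid progenitor markers (Mpo, Elane and 6 others) summed to 6429 CPM in KO MyePro and 10573 CPM in control MyePro, against 3087 and 3127 CPM in KO and control LSK. Mpo weighs most in these sums, with 2089 CPM in KO MyePro, 6134 CPM in control MyePro, 1075 CPM in KO LSK and 1992 CPM in control LSK. Gene by gene, 5 of the 8 markers were lower and 3 higher in KO MyePro, and 2 were lower and 6 higher in KO LSK. Transcripts encoded in mitochondria took 48.9% to 68.0% of LT-HSC gene counts and 2.76% to 5.85% of those of LSK and MyePro.

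Promoter windows of 6 members, picked after their values were seen, are shown as examples from among the genes with high or low ratios between KO and control below. Each window runs from 80 bases before to 20 bases after a transcription start listed by RefSeq (GRCm38.p6), 5′ to 3′ on the gene's strand. Capitals mark the longest run of C and T from 25 bases before the start onward, or the first of 2 equal runs in Rps27l.
Rps27l (chr9:66946006-66946105, plus strand): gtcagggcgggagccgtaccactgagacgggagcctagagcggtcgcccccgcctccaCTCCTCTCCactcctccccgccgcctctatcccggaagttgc
Rps27 (chr3:90213629-90213728, minus strand): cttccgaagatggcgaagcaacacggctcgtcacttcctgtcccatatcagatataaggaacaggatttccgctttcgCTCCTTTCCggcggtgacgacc
Rps4x (chrX:102189372-102189471, minus strand): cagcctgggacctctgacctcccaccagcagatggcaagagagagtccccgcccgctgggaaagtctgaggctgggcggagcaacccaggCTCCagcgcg
Rpl41 (chr10:128549149-128549248, minus strand): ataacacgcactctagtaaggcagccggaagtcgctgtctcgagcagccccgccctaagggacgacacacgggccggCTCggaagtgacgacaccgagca
Rps2 (chr17:24719983-24720082, plus strand): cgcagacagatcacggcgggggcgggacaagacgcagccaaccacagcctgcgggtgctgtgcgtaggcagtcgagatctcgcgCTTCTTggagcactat
Rpl4 (chr9:64173307-64173406, plus strand): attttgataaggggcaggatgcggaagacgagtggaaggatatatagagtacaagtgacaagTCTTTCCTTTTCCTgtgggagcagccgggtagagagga
The marked run was 14 bases long in Rpl4, 9 in Rps27l and Rps27, 6 in Rps2, 4 in Rps4x and 3 in Rpl41. In Rps27 it spanned the listed start, and in Rpl4 and Rps27l the marked run ended 5 and 14 bases before it. The RefSeq table held 72 windows for 60 of the 80 members. A pyrimidine run of at least 8 bases within 25 bases of the start occurred in 45.8% of the members' windows, against 19.7% of 32851 windows of all genes. Searched on both strands of the whole RefSeq windows, CCGGAAG, a core bound by ETS factors, occurred in 36.1% of the members' windows against 8.86% of all windows, and GCCATNTT, a core bound by YY1, in 20.8% against 6.05%. The TATA motif TATAAA occurred in 8.33% against 13.6%. CTTTCC, a pyrimidine core that a longer run can contain, occurred in 36 of the 72 windows, against 26.6% of all windows. These are matches of letters and no binding was measured here.

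In MyePro cells most ribosomal protein genes were slightly lower in KO than in control. The 80 genes together took 7.38% of gene counts in KO MyePro and 8.83% in control MyePro, a log2 ratio of -0.26. A library of sorted cells does not tell fewer cells of a type from less RNA per cell. Of the 77 members that averaged 5 CPM or more, 64 were lower and 13 higher in KO, with a median log2 ratio of -0.20, a 1.15-fold difference. That median was -0.12 with upper quartile scaling and -0.10 without mitochondrial and ribosomal RNA entries, with 57 members lower and 20 higher in KO under each. Over the 10208 genes that passed the same filter the median was -0.04 and 52.7% were lower. The other members, Rpl3l, Rpl10l and Rpl39l, are copies known from muscle or testis and stood below 0.5 CPM in all 4 LSK and MyePro libraries. With 1 library per genotype this difference has no replicate check, and the 95% intervals given below cover counting error only.

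The differences were small. None of the 77 members was 2-fold higher or lower in KO MyePro, where 11.7% of all genes were higher by this limit and 7.15% lower. At 1.5-fold, 4 members were lower (18.6% of all genes were) and 0 higher (20.5%). At 1.25-fold, a limit chosen after the values were seen, 23 members or 29.9% were lower, near the 32.4% of all genes, while 0 were higher against 30.2% of all genes. The middle 50% of the members' ratios spanned 0.26 on the log2 scale, against 0.90 for all genes.

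**Figure D1:**
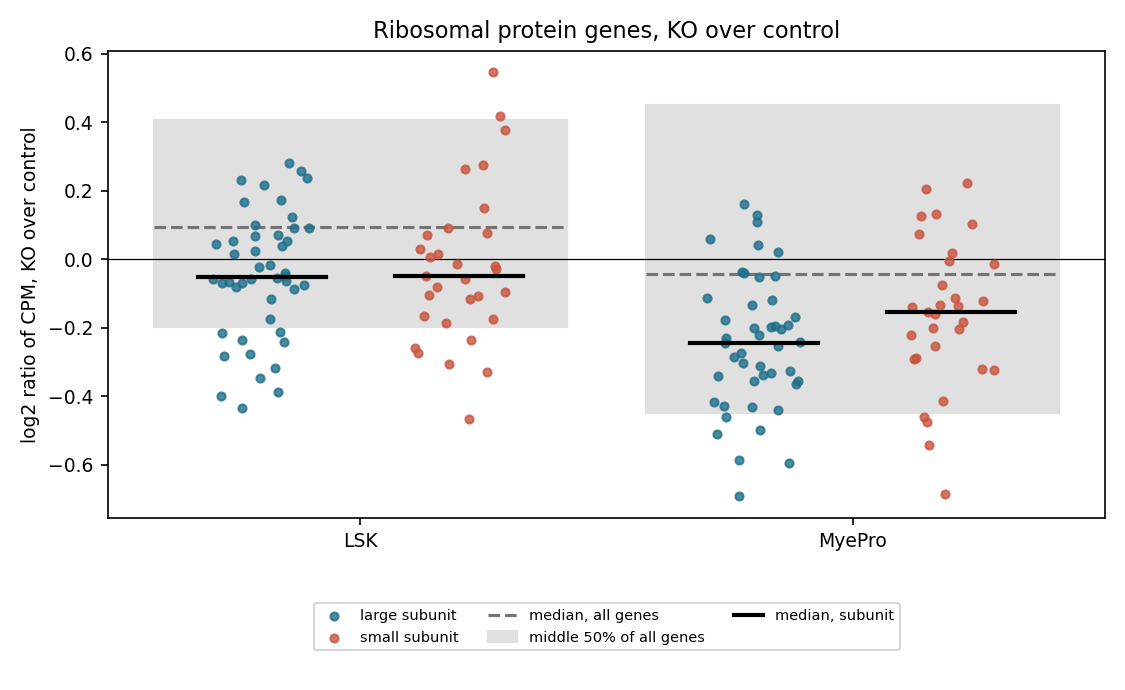
Each point is 1 ribosomal protein gene, placed by its log2 ratio of CPM in KO over control (vertical axis) in LSK and in MyePro, with the large subunit at the left and the small subunit at the right of each population and 1 library per group. Black bars are subunit medians, and the gray band and dashed line give the middle 50% and the median of all genes; in MyePro the subunit medians are -0.24 (large) and -0.15 (small), both below the all-gene median of -0.04, and no point reaches 2-fold (1 on this axis).

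The plot of ratios by subunit shows both subunits on the same side in MyePro. Of the large subunit members 40 of 46 were lower in KO, and their summed level was 39848 CPM in KO MyePro against 48702 CPM in control MyePro (log2 ratio -0.29). Of the small subunit members 24 of 31 were lower, with 33912 CPM in KO MyePro against 39576 CPM in control MyePro (log2 ratio -0.22). The gap between the subunits was not tested.

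The lowest ratio in MyePro belonged to Rpl41, which encodes a very small basic protein of the large subunit. It stood at 732 CPM in KO MyePro and 1182 CPM in control MyePro (log2 ratio -0.69, interval -0.73 to -0.66). Rps2, a small subunit protein near the entry of the mRNA channel, stood at 1202 CPM in KO MyePro and 1931 CPM in control MyePro (-0.68, interval -0.71 to -0.66). Rpl14 and Rpl4 were the other 2 members past 1.5-fold. Rpl4, which lines the exit tunnel for the new peptide, stood at 2414 CPM in KO MyePro and 3623 CPM in control MyePro (-0.59, interval -0.61 to -0.57). Rpl14 stood at 884 CPM in KO MyePro and 1334 CPM in control MyePro, also -0.59. Rps4x, the X-linked small subunit gene, followed with 1482 CPM in KO MyePro and 2160 CPM in control MyePro (-0.54, interval -0.57 to -0.52).

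At the other end stood Rps27 and Rps29, which encode small zinc-binding proteins of the small subunit. Rps27 had 171 CPM in KO MyePro and 147 CPM in control MyePro (log2 ratio 0.22, interval 0.14 to 0.31). Rps29 had 927 CPM in KO MyePro and 804 CPM in control MyePro (0.20, interval 0.17 to 0.24). Rpl39, a small protein of the exit tunnel, followed at 0.16, and Rps14 and Rpl35a at 0.13 each. The range over the 77 members ran from -0.69 to 0.22, so the members' ratios leaned to the lower side.

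Markers of other cell types differed between the same 2 libraries. Megakaryocyte markers (Pf4, Itga2b and 5 others) summed to 1478 CPM in KO MyePro and 146 CPM in control MyePro, all 7 of them at least 2-fold higher. Erythroid markers summed to 348 CPM in KO MyePro and 3124 CPM in control MyePro, with 7 of 9 past 2-fold on the lower side and 2 on the higher side. Mature neutrophil markers summed to 606 CPM in KO MyePro and 22.8 CPM in control MyePro. In KO MyePro Lcn2, S100a8 and S100a9 held 311, 224 and 63.4 CPM of this, while Camp was at 0. T and NK cell markers summed to 640 CPM in KO MyePro and 198 CPM in control MyePro, and macrophage markers to 160 CPM in KO MyePro and 18.7 CPM in control MyePro. Of the T and NK cell markers, Nkg7 alone held 509 CPM in KO MyePro and 189 CPM in control MyePro. Cd3d, Cd3e and Cd3g stood at 0.173 CPM or less in both. All markers of these lists that passed the filter (3 of neutrophils, 3 of T and NK cells and 4 of macrophages) were past 2-fold on the higher side. The filter averaged the 2 libraries, so markers near 0 in control could pass through KO alone. S100a9, for example, stood at 63.4 CPM in KO MyePro and 0.672 CPM in control MyePro. The direction of the markers that passed is thus partly set by the filter. B cell markers summed to 14.0 CPM in KO MyePro and 121 CPM in control MyePro, most of it Ighm, while the defining Ms4a1 was at 0 in both. The part of these cells in the ribosomal protein ratios was not tested. Ribosomal RNA entries took 5.08% of gene counts in KO MyePro and 1.01% in control MyePro. Without mitochondrial and ribosomal RNA entries, the 80 genes took 8.28% in KO MyePro and 9.24% in control MyePro.

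In LSK cells the ribosomal protein genes stood close to their control level on the scale of library totals. The 80 genes took 7.35% of gene counts in KO LSK and 7.81% in control LSK, a log2 ratio of -0.09 that was the same in both subunits. Of 77 members 46 were lower and 31 higher in KO, with a median of -0.05. Over 10351 genes the median was 0.09 and 41.6% were lower. Which members count as lower depended on the scaling: with TMM factors 64 were lower and 13 higher, as the median of all genes then moved to -0.04. Relative to the median of all genes, LSK and MyePro were alike. In LSK 62 of the 77 members stood below it, and in MyePro 60 did. The members' median minus that of all genes was -0.14 in LSK and -0.16 in MyePro.

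None of the 77 members was 2-fold higher or lower in KO LSK, against 6.26% and 4.42% of all genes. None passed 1.5-fold (15.7% of all genes were higher and 9.14% lower). At 1.25-fold 3 members were higher, against 30.8% of all genes, and 6 lower, against 18.2%. The middle 50% of the members' ratios spanned 0.25 on the log2 scale, against 0.61 for all genes.

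On library totals the 3 members past 1.25-fold on the higher side in LSK were small subunit genes. Rps27l, a paralog of Rps27 known as a target of p53, stood at 176 CPM in KO LSK and 121 CPM in control LSK (log2 ratio 0.55, interval 0.44 to 0.66). Rps27 itself stood at 188 CPM in KO LSK and 141 CPM in control LSK (0.42, interval 0.31 to 0.52). Rps29 stood at 872 CPM in KO LSK and 671 CPM in control LSK (0.38, interval 0.33 to 0.43). These 3 genes were also on the higher side in MyePro, where Rps27l had 201 CPM in KO and 184 CPM in control (0.13, interval 0.05 to 0.20).

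The lowest ratios in LSK again included Rps4x and Rpl41. Rps4x had 1521 CPM in KO LSK and 2100 CPM in control LSK (log2 ratio -0.47, interval -0.50 to -0.43). Rpl41 had 682 CPM in KO LSK and 922 CPM in control LSK (-0.43, interval -0.48 to -0.38). Rpl10, which takes part in the joining of the subunits, had 395 CPM in KO LSK and 521 CPM in control LSK (-0.40, interval -0.47 to -0.33). Rpl8, next to the catalytic centre, and Rpl14 followed at -0.39 and -0.35. Rps6, the protein phosphorylated by S6 kinases, stood at 1132 CPM in KO LSK and 1420 CPM in control LSK (-0.33). Rpsa, also known as the laminin receptor, stood at -0.27 in LSK and -0.41 in MyePro, and Rpl22, known for its role in T cell development, at -0.12 in each.

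Marker levels also differed between the LSK libraries. The LSK and LT-HSC markers summed to 1688 CPM in KO LSK and 1780 CPM in control LSK. Of the 9 that passed the filter, 4 were at least 2-fold lower in KO (4.42% of all genes were): Hlf, Mecom, Flt3 and Slamf1. Ly6a was the 1 that was at least 2-fold higher (6.26% of all genes were). Hlf stood at 48.8 CPM in KO LSK and 191 CPM in control LSK, and Ly6a at 67.0 CPM in KO LSK and 31.0 CPM in control LSK. Erythroid markers summed to 54.2 CPM in KO LSK and 718 CPM in control LSK. Of the 8 that passed the filter, 7 were at least 2-fold lower (4.42% of all genes were) and 1 at least 2-fold higher (6.26%). The higher 1 was Hbb-bt, at 15.5 CPM in KO LSK and 5.21 CPM in control LSK. Hba-a1, below the filter, stood at 2.94 CPM in KO LSK and 0.801 CPM in control LSK. Mature neutrophil markers summed to 185 CPM in KO LSK and 10.6 CPM in control LSK, and T and NK cell markers to 634 CPM in KO LSK and 200.3 CPM in control LSK. Nkg7 alone held 486 CPM in KO LSK and 194 CPM in control LSK, while Cd3d, Cd3e and Cd3g stood at 0.326 CPM or less in both. Macrophage markers summed to 106 CPM in KO LSK and 40.4 CPM in control LSK, and megakaryocyte markers to 764 CPM in KO LSK and 582 CPM in control LSK. The markers of neutrophils, T and NK cells and macrophages that passed the filter, 3 of each, were past 2-fold on the higher side. Here too a marker could pass through KO alone, such as S100a8 at 65.1 CPM in KO LSK and 0 CPM in control LSK. Markers below the filter went both ways. Ltf stood at 0 CPM in KO LSK and 0.801 CPM in control LSK, and Ngp at 1.96 CPM in KO LSK and 0.534 CPM in control LSK. B cell markers summed to 53.3 CPM in KO LSK and 159 CPM in control LSK, with Ms4a1 at 0 in both. Their part in the LSK ratios was not tested.

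**Figure D2:**
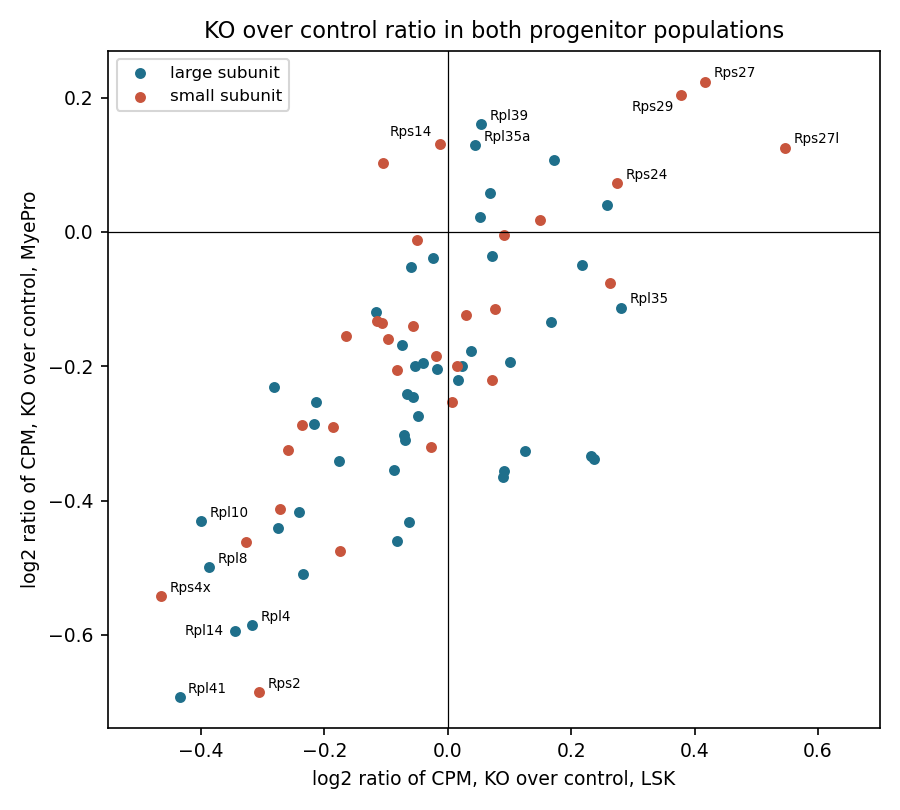
Each point is 1 of 77 ribosomal protein genes, placed by its log2 ratio of CPM in KO over control in LSK (horizontal axis) and in MyePro (vertical axis), colored by subunit, with the 5 highest and 5 lowest members of each comparison named. Points run from Rpl41, Rps2 and Rps4x at the lower left to Rps27, Rps29 and Rps27l at the upper right, with 44 genes below 0 on both axes.

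The ratios of the 2 populations come from separate libraries and can be set against each other gene by gene, as in the plot of MyePro against LSK ratios. Pearson's r was 0.72 and Spearman's rho 0.66 over the 77 members, given as a description, since genes of a library share its depth and composition. Over 9974 genes of both tables r was 0.74 and rho 0.73, close to the members' values. On the scale of library totals 44 members were lower in KO in both, 11 higher in both, 20 higher in LSK and lower in MyePro, and 2 lower in LSK and higher in MyePro.

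The genes mutated in Diamond-Blackfan anemia had medians slightly above those of all members in both populations. Of the 19 genes of this list, 10 were higher and 9 lower in KO LSK, with a median of 0.04 (below 0 with TMM scaling) against -0.05 for all members. In KO MyePro 6 were higher and 13 lower, with a median of -0.11 against -0.20 for all members. Rps19, the gene most often mutated in the disease, stood at 942 CPM in KO LSK and 979.5 CPM in control LSK (log2 ratio -0.06), and at 880 CPM in KO MyePro and 969 CPM in control MyePro (-0.14). Rps14, the gene of the 5q- syndrome, stood at 883 CPM in KO LSK and 890.5 CPM in control LSK (-0.01), and at 876 CPM in KO MyePro and 800 CPM in control MyePro (0.13).

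**Figure D3:**
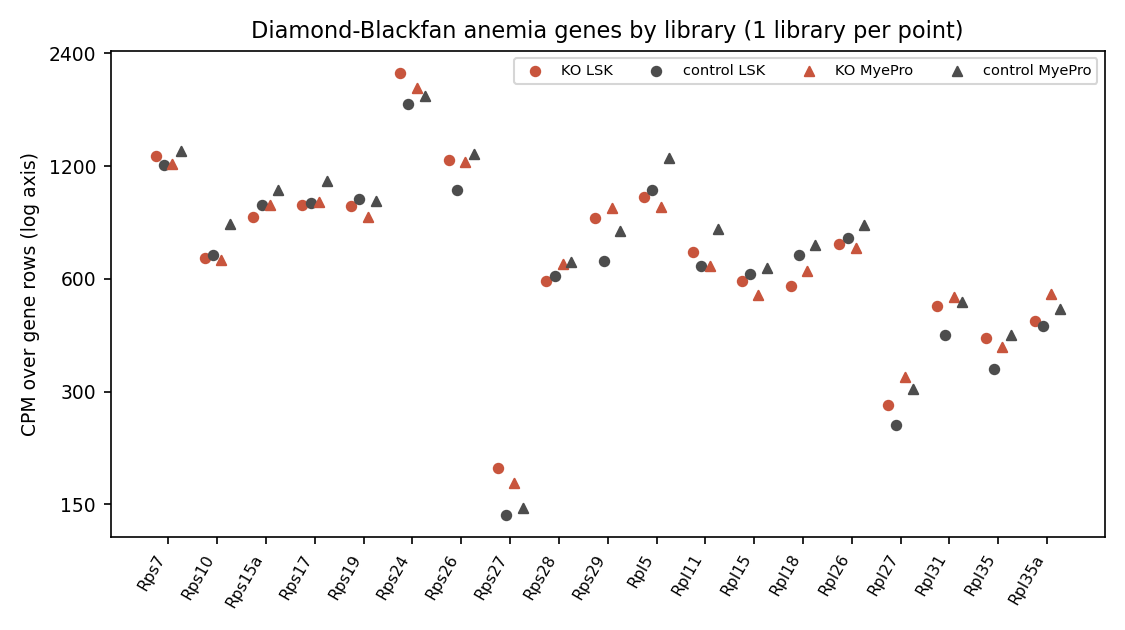
CPM over gene entries (vertical log axis) of the 19 Diamond-Blackfan anemia genes, 1 library per point, with KO in red left of control in gray, circles for LSK and triangles for MyePro. Within each gene the 4 libraries lie close together: Rps24 lies at 2130 CPM in KO LSK and 1761 CPM in control LSK, and Rps19 at 942 CPM in KO LSK and 979.5 CPM in control LSK. Heights of different genes are not per length and are not compared.

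The plot of the 19 genes by library gives each of their levels. Rpl5 and Rpl11 form the 5S particle that binds MDM2 when ribosome assembly fails. Rpl5 stood at 936 CPM in KO MyePro and 1263 CPM in control MyePro (log2 ratio -0.43), and Rpl11 at 650 CPM in KO MyePro and 815 CPM in control MyePro (-0.33). In LSK they stood at -0.06 and 0.12, and the value of Rpl11 turns below 0 with TMM scaling. Rps24 stood at 2130 CPM in KO LSK and 1761 CPM in control LSK (0.27) and at 0.07 in MyePro.

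The ribosomal stalk, which recruits the elongation factors, consists of Rplp0, Rplp1 and Rplp2 with Rpl12 at its base. Rplp0 stood at 2727 CPM in KO MyePro and 3488 CPM in control MyePro (log2 ratio -0.36), and Rpl12 at 977 CPM in KO MyePro and 1238 CPM in control MyePro (-0.34). Rplp1 stood at -0.19 in MyePro, and Rplp2 at 0.02, a value that turns below 0 with TMM scaling. In LSK the 4 genes ran from -0.18 to 0.10.

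Of the 4 X-linked members, Rps4x, Rpl10 and Rpl36a were lower in KO in both populations. Rpl39 stood at 0.05 in LSK, which turns below 0 with TMM scaling, and at 0.16 in MyePro. Rpl36a stood at 408.5 CPM in KO LSK and 494 CPM in control LSK (log2 ratio -0.28), and at 440 CPM in KO MyePro and 596 CPM in control MyePro (-0.44). Xist, the RNA of the inactive X chromosome, stood at 0.134 to 0.607 CPM in all 4 libraries. It was thus at or near 0 in both genotypes.

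Set against LSK, the ribosomal protein genes of MyePro cells were higher in control, while in KO their place depended on the scaling. In KO, the 80 genes took 7.38% of gene counts in MyePro and 7.35% in LSK (log2 ratio 0.00), and 42 of 77 members were higher and 35 lower in MyePro, with a median of 0.02 against -0.13 over 10409 genes. In control, they took 8.83% in MyePro and 7.81% in LSK (log2 ratio 0.18), and 72 of 77 were higher in MyePro, with a median of 0.19 against 0.02 over 10009 genes. With TMM scaling the median of all genes in KO moved by 0.13 to 0.00, and 69 members were higher and 8 lower in MyePro. Relative to the median of all genes, the members' median stood 0.15 higher in KO and 0.17 higher in control, with 69 members above it in KO and 71 in control. The difference between the genotypes in this step was not tested, as each group had 1 library. The marker sums given above also differ between these libraries, and their part in these ratios was not tested.

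**Figure D4:**
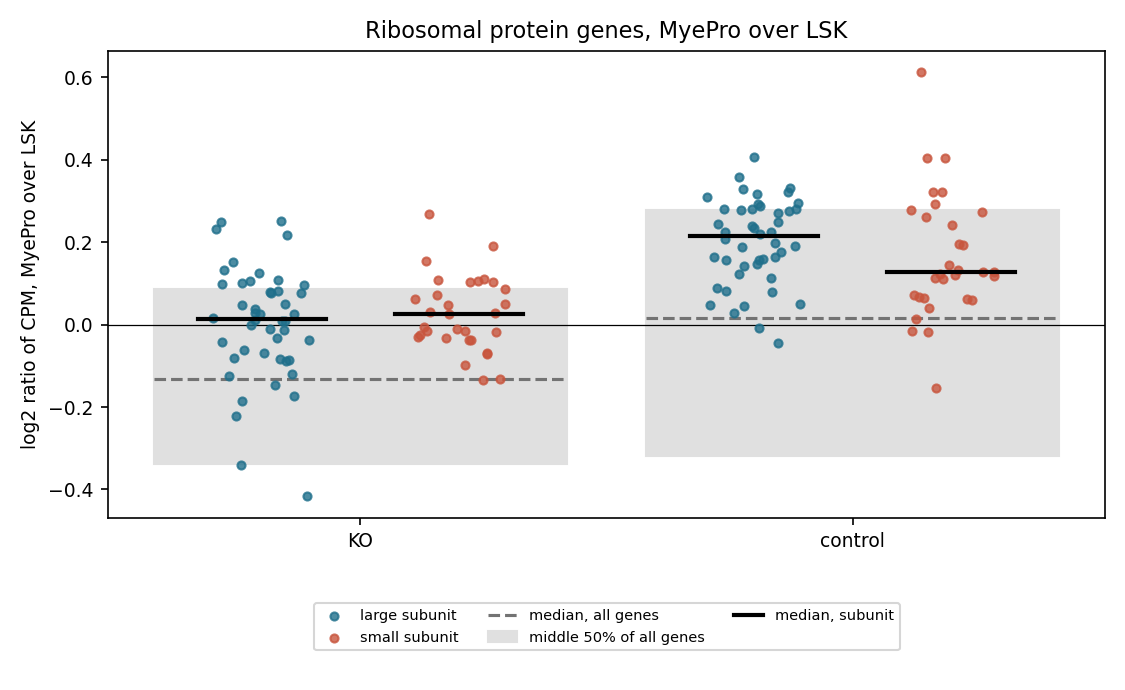
Log2 ratio of CPM in MyePro over LSK (vertical axis) for each ribosomal protein gene, in KO at the left and control at the right, with 1 library per group. Within each genotype the large subunit is at the left; bars are subunit medians, and the gray band and dashed line are the middle 50% and median of all genes, which lies at -0.13 in KO and 0.02 in control, below the subunit medians in both.

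The plot of MyePro over LSK ratios shows most members above the dashed line of all genes in both genotypes. None of the 77 members was 2-fold higher or lower in MyePro in either genotype, against 2.36% higher and 2.25% lower of all genes in KO, and 2.76% higher and 7.54% lower in control. In KO 0 members were 1.5-fold higher (5.98% of all genes) or lower (9.13%), and in control 1 was higher (7.8%) and 0 lower (14.7%). At 1.25-fold, 2 members were lower in KO MyePro (26.8% of all genes) and 0 higher (11.9%), while 9 were higher in control MyePro (21.4%) and 0 lower (24.8%).

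The highest ratio in KO was that of Rps21, with 419 CPM in KO MyePro and 348 CPM in KO LSK (log2 ratio 0.27, interval 0.19 to 0.34). Rpl27 and Rpl10 followed at 0.25 each, Rpl35a at 0.23 and Rplp2 at 0.22. Rps27l, the highest in control, had 201 CPM in KO MyePro and 176 CPM in KO LSK (0.19, interval 0.09 to 0.30). In control it had 184 CPM in MyePro and 121 CPM in LSK (0.61, interval 0.53 to 0.69). Rpl29, Rps2, Rps12 and Rpl41 followed in control at 0.41, 0.41, 0.40 and 0.36, and Rps14 was lowest at -0.15.

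The 5 lowest ratios in KO all belonged to large subunit genes. Rpl23a, at the exit of the tunnel, had 295 CPM in KO MyePro and 394 CPM in KO LSK (log2 ratio -0.42, interval -0.49 to -0.34), against 373 CPM in control MyePro and 334 CPM in control LSK (0.16). Rpl24, which forms a bridge between the subunits, had 23.4 CPM in KO MyePro and 29.7 CPM in KO LSK (-0.34, interval -0.62 to -0.06). It rests on 182 to 615 counts per library, the fewest among the 77 members. Rpl10a of the mobile L1 stalk, Rpl3 and Rpl7a followed at -0.22, -0.19 and -0.17.

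In LT-HSC, where each genotype had 2 libraries, no ribosomal protein gene passed the test. The 80 genes took 0.623% and 1.26% of gene counts in the libraries labelled KO and 1.43% and 0.942% in control. Transcripts encoded in mitochondria took most of the counts in 3 of the 4 libraries. Without mitochondrial and ribosomal RNA entries they were 3.09% and 3.18% in the libraries labelled KO and 3.58% and 2.55% in control, so that both values of the libraries labelled KO lay between the controls. On the TMM scale the members summed to 10734 and 9990 CPM in the libraries labelled KO and 11892 and 8287 CPM in control.

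Of 77 members tested, 0 passed an adjusted p under 0.05 in the edgeR quasi-likelihood test (Benjamini-Hochberg, 12844 genes), against 0.0156% of all genes (2 genes, both lower in the libraries labelled KO). At an unadjusted p under 0.05 the members also counted 0, against 2.29% of all genes, and the smallest unadjusted p of a member was 0.205. DESeq2 called 14 genes and limma-voom 1 gene, none of them a member. The members' log2 fold changes had a median of 0.06, against 0.00 for all genes, with 56 above 0 and 21 below. With ERCC size factors 43 were above 0 and 34 below, and with library totals 3 were above 0 and 74 below. Their standard errors ran from 0.25 to 0.63 with a median of 0.30, larger than most of the fold changes.

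For most members the spread between the controls exceeded the difference between the genotypes. In 71 of 77 members control 1 was above control 2, against 49.7% of all genes, and in 47 of 77 members (61.0%) both libraries labelled KO lay between the 2 controls, against 20.9% of all genes. The groups did not overlap in 4 members or 5.19%, against 27.7% of all genes.

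Rpl34 and Rpl39 were among these members. Rpl34 had 51.3 and 47.7 TMM-normalized CPM in the libraries labelled KO against 46.7 and 31.1 in control (log2 fold change 0.35 ± 0.30, SE; edgeR adjusted p = 0.999). Rpl39 had 125 and 127 in the libraries labelled KO against 116 and 85.8 in control (0.32 ± 0.27). Both fold changes were under 1.5 times their standard error.

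The highest fold change was that of Rps26, a Diamond-Blackfan anemia gene, with 65.7 and 97.3 TMM-normalized CPM in the libraries labelled KO against 68.8 and 52.9 in control (log2 fold change 0.42 ± 0.30). The lowest was that of Rpl27, with 61.0 and 55.9 in the libraries labelled KO against 87.5 and 59.1 in control (-0.33 ± 0.29). In both genes the groups overlapped. Rpl37a and Rpl36 stood at 0.36 and 0.29, and Rps9, Rpsa and Rpl17 at -0.25, -0.23 and -0.21, none past the test.

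Several members named for LSK and MyePro above were read again in LT-HSC. Rps4x had 276 and 279 TMM-normalized CPM in the libraries labelled KO against 388 and 175 in control (log2 fold change -0.02 ± 0.39). Rpl41 had 286 and 194 in the libraries labelled KO against 272 and 221 in control (-0.04 ± 0.30). Rps27l had 21.6 and 22.3 in the libraries labelled KO against 25.3 and 14.3 in control (0.15 ± 0.37), and Rps27 had 62.0 and 82.1 in the libraries labelled KO against 65.7 and 66.8 in control (0.12 ± 0.26). Rps2, Rpl39 and Rps14 had log2 fold changes of 0.25, 0.32 and 0.21. Across the 77 members the LT-HSC fold changes had a Pearson's r of 0.23 with the LSK ratios and 0.10 with the MyePro ratios, as a description.

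**Figure D5:**
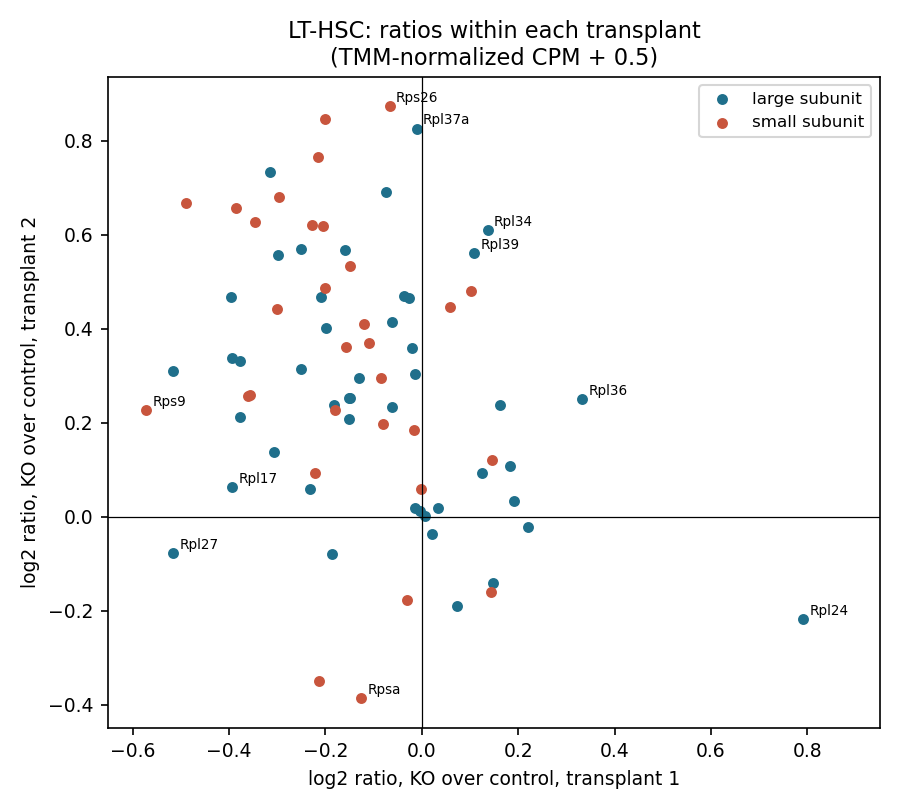
Each point is 1 ribosomal protein gene in LT-HSC, placed by the log2 ratio of KO over control (TMM-normalized CPM plus 0.5) within transplant 1 (horizontal axis) and transplant 2 (vertical axis), colored by subunit. Most points lie at the upper left, with 54 of 77 genes lower in the library labelled KO in transplant 1 and higher in it in transplant 2, and the members named in the text at the edges.

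Set against each other within a transplant, the libraries gave opposite signs, as the plot by transplant shows. In transplant 1 the median of the members' log2 ratios was -0.15, with 18 of 77 above 0, and in transplant 2 it was 0.30, with 66 above 0. The median over all genes was 0.00 in transplant 1 and 0.01 in transplant 2. With transplant as a block the members' median was 0.10 and 0 members passed. Xist stood at 2165 and 1504 TMM-normalized CPM in the libraries labelled KO and at 239 and 150 in control, while the 4 X-linked members had log2 fold changes of -0.02 to 0.32. The labels used here give no sex for the donor animals, so genotype and the make-up of the pools by sex cannot be told apart in LT-HSC. Erythroid markers summed to 48.2 and 57.3 CPM (TMM-normalized, as are the sums that follow) in the libraries labelled KO and 115 and 88.3 CPM in control, and B cell markers to 32.1 and 108 CPM in the libraries labelled KO and 40.0 and 365 CPM in control. Megakaryocyte markers summed to 230 and 271 CPM in the libraries labelled KO and 307 and 199.9 CPM in control, with 0 of 7 higher in transplant 1 and 7 of 7 in transplant 2. The markers of LSK and LT-HSC summed to 630.0 and 649.9 CPM in the libraries labelled KO and 686 and 434 CPM in control. Mature neutrophil markers summed to 149 and 224 CPM in the libraries labelled KO and 65.1 and 325 CPM in control. Myeloid progenitor markers summed to 81.4 and 261 CPM in the libraries labelled KO and 72.4 and 317 CPM in control. The sums of the megakaryocyte and of the LSK and LT-HSC markers were lower in KO in transplant 1 and higher in transplant 2, as was the members' median. Of the 10 LSK and LT-HSC markers, however, 5 were higher in KO in transplant 1 and 8 in transplant 2. The neutrophil and myeloid progenitor sums ran the other way, and the erythroid and B cell sums were lower in KO in both transplants. The part of these marker differences in the member values was not tested.

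Ribosomal proteins outside the naming rule went both ways. Gnb2l1, which encodes the ribosome-bound scaffold RACK1, stood at 2179 CPM in KO LSK and 2583 CPM in control LSK (log2 ratio -0.25) and at 2099 CPM in KO MyePro and 2897 CPM in control MyePro (-0.46). Rps3a1 stood at 0.01 in LSK and -0.34 in MyePro. Fau stood at 0.20 in LSK and 0.23 in MyePro. Rpl22l1, a paralog of Rpl22, stood at 22.7 CPM in KO LSK and 38.9 CPM in control LSK (-0.78), lower than any member. In LT-HSC Rack1, Rps3a1 and Fau had fold changes of -0.01, 0.07 and -0.29, none past the test.

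Other genes of translation had lower medians in KO MyePro than the ribosomal protein genes, a difference that was not tested. Of 19 translation factors and related genes with TOP mRNAs, 18 were lower in KO MyePro (52.7% of all genes were). Their median log2 ratio was -0.68 (all genes -0.04), and 4 were past 2-fold (7.15% of all genes were lower by this limit). In LSK 14 of the 19 were lower (41.6% of all genes were), with a median of -0.28 and 0 past 2-fold. Npm1, a nucleolar chaperone of ribosome assembly, stood at 822 CPM in KO MyePro and 2265 CPM in control MyePro (-1.46). Eif4b, a cofactor of the helicase eIF4A, stood at 416 CPM in KO MyePro and 959 CPM in control MyePro (-1.20). Eef1g and Hnrnpa1 stood at -1.05 each, while Tpt1, the 1 gene of the list that was higher, stood at 0.42.

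Of 11 measured chaperones and importers of ribosomal proteins, 10 were lower in KO MyePro (52.7% of all genes were), with a median of -0.56. Nap1l1 is in this list and in that of the translation factors. Ipo7, an importin that carries ribosomal proteins to the nucleus, stood at 79.6 CPM in KO MyePro and 192 CPM in control MyePro (log2 ratio -1.27), and Heatr3 at -1.17. Ipo7 was also the 1 gene of the list past 2-fold in LSK, with 103 CPM in KO LSK and 221 CPM in control LSK (-1.09). Of all genes 4.42% were 2-fold lower in KO LSK. Of 12 measured regulators of TOP mRNAs and ribosome production, 11 were lower in each population, with medians of -0.18 in LSK and -0.56 in MyePro. Of all genes 41.6% were lower in LSK and 52.7% in MyePro. The list was not split into genes that raise and genes that lower this production, and translation was not measured. Myc, which drives transcription of ribosome genes, stood at 183 CPM in KO MyePro and 481 CPM in control MyePro (-1.39), and Larp1 at 166 CPM in KO MyePro and 396 CPM in control MyePro (-1.26). In LT-HSC these 3 lists had medians of 0.08, 0.09 and -0.05, with 0 genes past the edgeR test.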

How the data were processed

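RNA was measured in 8 libraries of sorted mouse marrow cells. Each library's deposited file lists raw read counts by gene. Tools named in the submitters' processing notes include CASAVA 1.8.4, TopHat2, Picard 1.126, HTSeq 0.6.0 and DESeq 3.0, with build mm10. The sources used here give neither the annotation nor the strand setting, so reads shared with overlapping genes cannot be told apart. Reads placed at more than 1 position made up 23.9% to 37.9% of the file totals and are in no gene's count, which can lower genes with many pseudogenes. Pseudogene entries with -ps in their names held 1.79 to 2.13 counts per 100 counts of the members. Pseudogenes under Gm names were not in this count. Per the labels' protocols polyA RNA was selected in 2 rounds. Levels of different genes were not compared, since no transcript lengths were used.

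Of 39179 LT-HSC gene IDs, 37607 (96.0%) were matched to a symbol. Rows without a gene name stayed out of library sizes, and 2.40% to 6.25% of the LSK and MyePro file totals and 16.7% to 26.0% of the LT-HSC totals were reads without a feature. LT-HSC counts were fitted with edgeR 4.0.16 (R 4.3.3; TMM, genes reaching 1 CPM in 2 or more of the 4 libraries, two-sided quasi-likelihood test, Benjamini-Hochberg over all genes, threshold 0.05), and SD and SE are over 2 libraries a group. No label says that the pools are separate beyond the transplant number, so p-values measure the spread between these libraries. Same-numbered libraries share a transplant per the labels, and their deviations from the group means correlated at 0.285 across genes. LSK and MyePro, with 1 library per group, were compared by the log2 ratio of CPM over gene entries with a prior count of 2, for genes averaging 5 CPM or more, and called at 2-fold. Exact 95% intervals (conditional binomial) cover counting error only. Both steps were tested on simulated data. The members, the gene lists and the rule for named genes (the 5 highest and 5 lowest members with at least 10 CPM per comparison, set lists, and up to 4 genes of each other list) were chosen with earlier results of these data known. Results of a few single genes are not reported here. Motif searches used RefSeq promoter windows. Alternatives were other scalings, filters, prior counts, tools, folds, the transplant block, added counts of the -ps pseudogenes and each LT-HSC library left out.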

Additional observations from a re-analysis of the deposited data

Results flagged for a closer look

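On library totals, 11 of 77 members had log2 ratios of KO over control with opposite signs in LSK and MyePro and counting intervals clear of 0 in both, 10 of them above 0 in LSK and below 0 in MyePro. In MyePro over LSK, 18 of 77 were below 0 in KO and above 0 in control by the same measure. None of these differences was tested, since each group had 1 library. The share of all genes by this measure was not counted. By sign alone, KO over control was higher in LSK and lower in MyePro in 20 of 77 members and in 1843 of 9974 genes. The reverse held in 2 members and 693 genes. The signs depend on the scaling: with TMM factors 8 members in all were below 0 in KO MyePro over LSK. The members named here are those that were also among the highest or lowest of a comparison. Rpl35 had a log2 ratio of KO over control of 0.28 in LSK and -0.11 in MyePro. In MyePro over LSK, Rpl23a had -0.42 in KO and 0.16 in control, Rpl24 had -0.34 in KO and 0.23 in control, and Rpl10a had -0.22 in KO and 0.16 in control. Rpl3 had -0.19 in KO and 0.089 in control, and Rpl7a had -0.17 in KO and 0.28 in control. In LT-HSC the members' median ratio of KO over control was -0.15 in transplant 1 and 0.30 in transplant 2, and this difference was not tested either.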

How the results depend on the processing

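No member passed 2-fold in LSK or MyePro, or the test in LT-HSC, under any setting run. The medians moved with the scaling. In KO over control LSK the median was -0.18 with TMM, -0.16 with RLE size factors, -0.15 with upper quartile scaling and -0.082 without mitochondrial and ribosomal RNA entries, and in KO over control MyePro it was -0.25, -0.24, -0.12 and -0.10 in the same order. In KO MyePro over LSK it was 0.15, 0.14, 0.16 and 0.094, and 0.026 with pseudogene counts added, and in control MyePro over LSK 0.23, 0.24, 0.15, 0.13 and 0.18. TMM scaling changed the sign of 18 of 77 members in KO over control LSK and of 27 in KO MyePro over LSK. At lower folds than 2 the member counts were 9 in KO over control LSK (1.25-fold), 4 (1.5-fold) and 23 (1.25-fold) in KO over control MyePro, 2 (1.25-fold) in KO MyePro over LSK, and 1 (1.5-fold) and 9 (1.25-fold) in control MyePro over LSK; the 1.25-fold limit was chosen after seeing the data. In LT-HSC the median turned to -0.31 with library totals, where all genes moved to -0.35. Leaving out 1 library gave -0.16 (without control 2) to 0.34 (without control 1), with -0.01 without KO 1, so the sign of the median rests on single libraries. The cause was not tested. With transplant as a replicate block the median was 0.10, and 0 members and 4 of all genes passed. The block changed no call of a member. Depth limits Rpl24 most, with 182 counts in KO LSK.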
